A study of Sus scrofa with 37 samples.

Results

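Mitochondrial ribosomal proteins are encoded in the nucleus, made in the cytosol and imported into mitochondria, where they form the mitoribosome with ribosomal RNA of the mitochondrial genome. The large subunit joins amino acids and the small subunit reads the messenger RNA. The mitoribosome makes the few membrane proteins of the respiratory chain that mitochondrial DNA encodes, so in muscle, which depends on oxidative phosphorylation, its output has to match that of the nuclear genes for the other respiratory subunits. The genes described here are those whose symbol begins with MRPL or MRPS and a number: 58 of the 9418 genes in the count table, 34 named for the large and 24 for the small subunit. All 58 passed the filter on low counts, and 9411 genes were tested in all.

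The RNA came from skeletal muscle of Bama minipigs, a small pig breed, after contusion, a blunt mechanical injury. There are 4 libraries for each of 7 times (4 and 8 h, 12 and 16 h, 20 and 24 h, and 48 h) and 9 control libraries. No genotype, sex or age is named. Controls carry the same treatment label as injured muscle, mechanical damage, and what was done to them is not described. The design text speaks of 8 animals. Libraries from 1 animal cannot be picked out by label, so each p-value below measures only the spread between libraries.

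Column totals ran from 9.86 to 22.9 M counts. Of 11 muscle fibre markers 5 have a row in the table given here (CKM, MYH7, TNNT1, TNNT3 and NEB), and in control libraries they summed to between 49400 and 90500 CPM (each library's counts brought to a common size with edgeR's TMM factors). The libraries also part on something other than time: 5 sets can be drawn from the column total and from the CPM of C1QBP, NDUFAF8 and ND6, with thresholds placed after the data were seen. Set 1 holds controls 1 and 2, libraries 1 to 3 at 8 h and all 4 at 16 h. Set 2 holds libraries 1, 2 and 4 at 4 h, 3 and 4 at 12 h, 1 and 4 at 20 h and 3 at 24 h. Set 3 holds library 3 at 4 h and libraries 2 and 4 at 24 h. The remaining libraries are in sets 4 and 5, which differ in ND6. No control is in set 2 or 3, which hold all 4 h libraries.

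The mRNA of both subunits was lowest at 16 and 20 h. Summed over its 34 genes, the large subunit stood at 1660 ± 148 CPM in the controls (SD, n = 9), with a lowest control of 1430, a median of 1660 and a highest of 1860 CPM. At 16 h the libraries held 1160, 1140, 1240 and 1380 CPM, and at 20 h they held 1170, 1120, 1170 and 1290 CPM. Each of these 8 libraries lay below every control. As a share of the control mean, the large-subunit sum was 89.4%, 85.4%, 92.9%, 73.8%, 71.4%, 76.9% and 87.3% at the 7 times in order. In bulk tissue, fewer cells of a type and less RNA per cell cannot be told apart.

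The small subunit was lower still by this measure, and at 16 and 20 h 1 gene made up most of the gap. Its 24 genes summed to 1160 ± 103 CPM in the controls (SD, n = 9; lowest 965, median 1190, highest 1270). The 4 libraries at 16 h held 712, 720, 779 and 853 CPM, and those at 20 h 753, 723, 736 and 771 CPM. The sum was 86.4%, 76.3%, 86.7%, 66.2%, 64.4%, 68.5% and 75.6% of the control mean at the 7 times in order. All libraries at 16, 20 and 24 h lay below all controls. MRPS36 alone gave 13.7% of the small-subunit sum in the controls and 4.85% at 20 h. Without it the small-subunit sum was 72.1% of control at 16 h and 71.1% at 20 h, close to the 73.8% and 71.4% of the large subunit. At 48 h it was 80.1% without MRPS36, still below the 87.3% of the large subunit. The ratio of the large to the small sum was 1.44 ± 0.0844 in controls (SD, n = 9). The controls ran from 1.34 to 1.62, with control 7 highest and the next at 1.49. In the 4 libraries at 16 h the ratio was between 1.58 and 1.62. It ran from 1.53 to 1.66 at 8 h, 1.55 to 1.67 at 20 h and 1.48 to 1.66 at 24 h. At 48 h it was 1.59 to 1.73, and at 4 and 12 h it stayed within the control range.

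**Figure D1:**
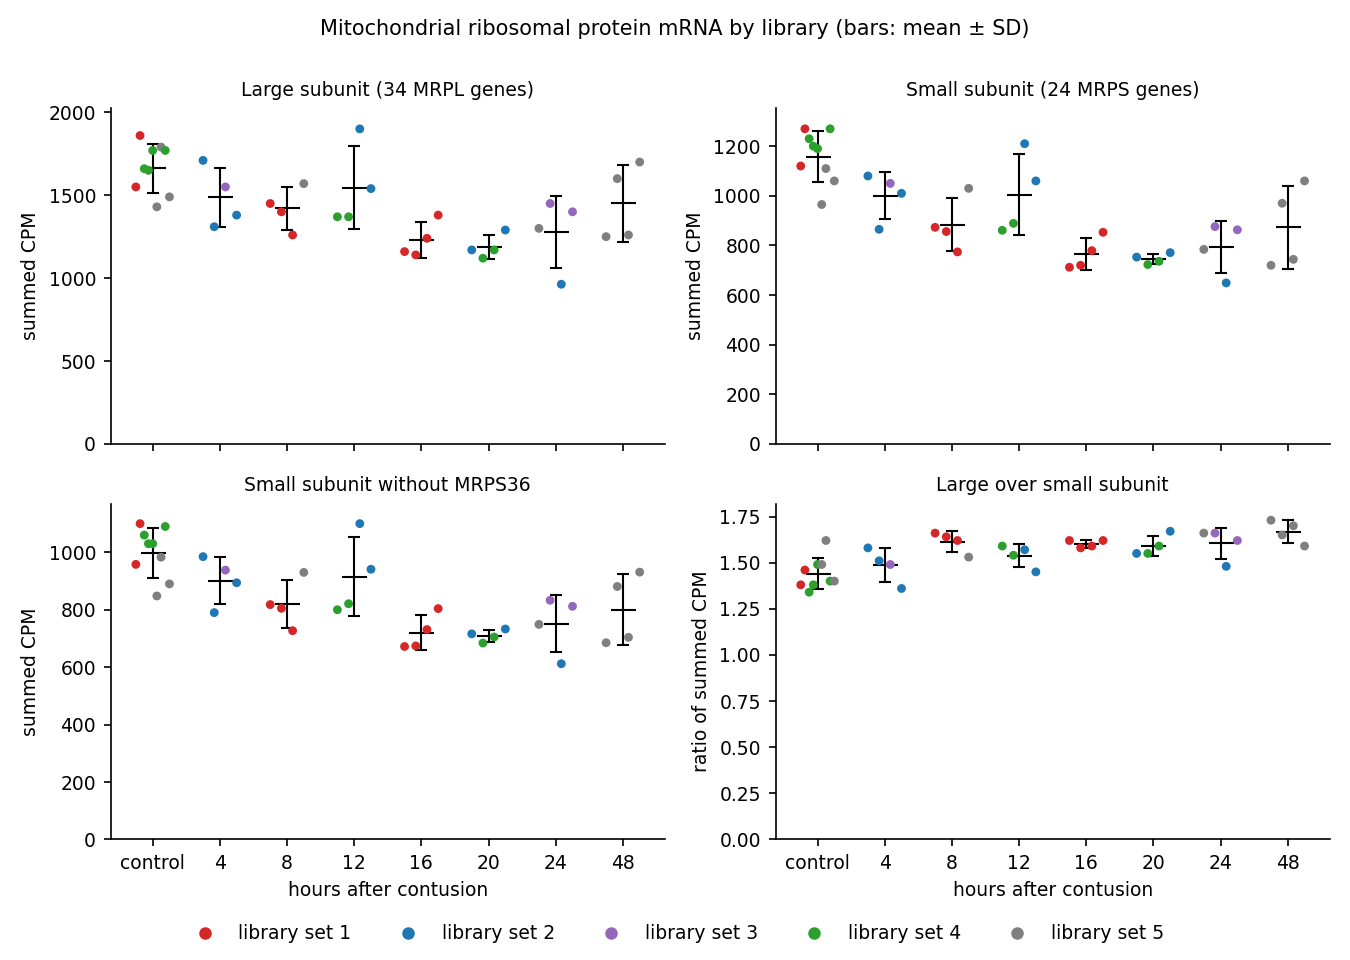
Summed CPM of the large subunit, the small subunit and the small subunit without MRPS36, and the ratio of large to small, for each of the 37 libraries by hours after contusion; points are libraries coloured by library set, bars are the mean ± SD. The 8 libraries at 16 and 20 h lie below all 9 controls in all 3 sums (1120 to 1380 CPM against 1430 to 1860 for the large subunit), whereas the libraries at 12 and 48 h divide into lower and control-like ones.

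These sums are on the TMM scale, and the scale matters. Dividing by column totals in place of TMM shifted the median of the whole table by 0.35, 0.33, 0.48 and 0.35 on the log2 scale at the 4 times from 16 h on, and by -0.15 at 4 h. On that scale the log2 ratio of the large-subunit sum to control was -0.08 at 16 h and -0.14 at 20 h but 0.10 at 24 h and 0.13 at 48 h, and that of the small subunit stayed below 0, at -0.24, -0.30, -0.07 and -0.09. The members still lay below the other genes: on column totals their median log2 change at 24 h was 0.17 for the large and -0.11 for the small subunit, against 0.46 for all genes. As a share of the column's counts the 58 genes took 0.256% in controls, 0.204% and 0.20% at 4 and 8 h, 0.233% and 0.223% at 16 and 20 h, and 0.262% at 24 h. All directions below are relative to the TMM scale.

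Gene by gene, falls outnumbered rises at every time. A gene is called here when edgeR's quasi-likelihood test against the controls gave an adjusted p below 0.05, with Benjamini-Hochberg adjustment over all 9411 genes. At 16 h 38 of the 58 members were lower (27.8% of all genes tested were) and 3 higher (25.3% of all genes). At 20 h 40 were lower (26.2% of all genes) and 2 higher (25.4%). At 24 h 31 were lower (27.1%) and 4 higher (26.8%). These shares of lower members, 65.5%, 69.0% and 53.4%, lie well above the background. Column totals split the calls otherwise, for the members and for all genes. On that scale 23 members were lower and 8 higher at 16 h (14.4% and 38.7% of all genes), 20 lower and 5 higher at 20 h (15.5% and 38.5%), and 11 lower and 14 higher at 24 h (12.5% and 48.2%).

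The other times gave smaller counts. At 8 h 25 members were lower (28.2% of all genes) and 3 higher (25.8%), or 29 and none on column totals (29.3% and 20.3%). At 4 h 9 were lower (9.06% of all genes) and 1 higher (9.22%), or 18 and none on column totals (14.2% and 3.76%). At that time leaving out library 2 or 4 left 3 or 6 members called. At 12 h 9 were lower (14.7%) and 4 higher (16.3%), a share of 15.5% lower that is near the background, and 8 were called without library 1. At 48 h 11 were lower (7.45%) and 1 higher (12.8%), or 3 and 7 on column totals (3.17% and 32.4%). Tested over the 7 times jointly, 52 of the 58 members changed, against 83.2% of all genes, so a change at some time was common in the whole table. The 4 libraries lay below all 9 controls for 31, 19 and 24 members at 16, 20 and 24 h (15.9%, 11.8% and 14.7% of all genes). They did so for 2, 11 and 2 members at 4, 8 and 12 h (2.44%, 12.2% and 4.46%) and for 3 at 48 h (0.818%). They lay above all controls for MRPS10 at 12, 16 and 24 h (6.04%, 17.2% and 16.4% of all genes) and MRPS34 at 16 h, and for no member at 4, 8, 20 or 48 h (2.28%, 13.8%, 14.3% and 1.41%).

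Both subunits gave this pattern. Of the 34 large-subunit genes 6, 13, 5, 21, 22, 15 and 4 were lower at the 7 times in order, and of the 24 small-subunit genes 3, 12, 4, 17, 18, 16 and 7. The median log2 change of the large subunit was -0.56 at 16 h, -0.60 at 20 h and -0.31 at 24 h, and that of the small subunit -0.69, -0.65 and -0.58, beside -0.04, -0.04 and -0.02 for all genes. Over the times, 45 members were called only lower, 3 only higher, 3 in both directions and 7 at no time (1253 of all genes, 13.3%, were called at none). For the counts by direction the share of all genes is not given, and they cannot be set against a background. The mean was lowest at 16 h for 24 members and at 20 h for 14, at 8 h for 6, and at no time for more than 5 members otherwise (5, none, 5 and 4 at 4, 12, 24 and 48 h). No share over all genes is given for the time of the lowest mean, so these counts describe the members alone.

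**Figure D2:**
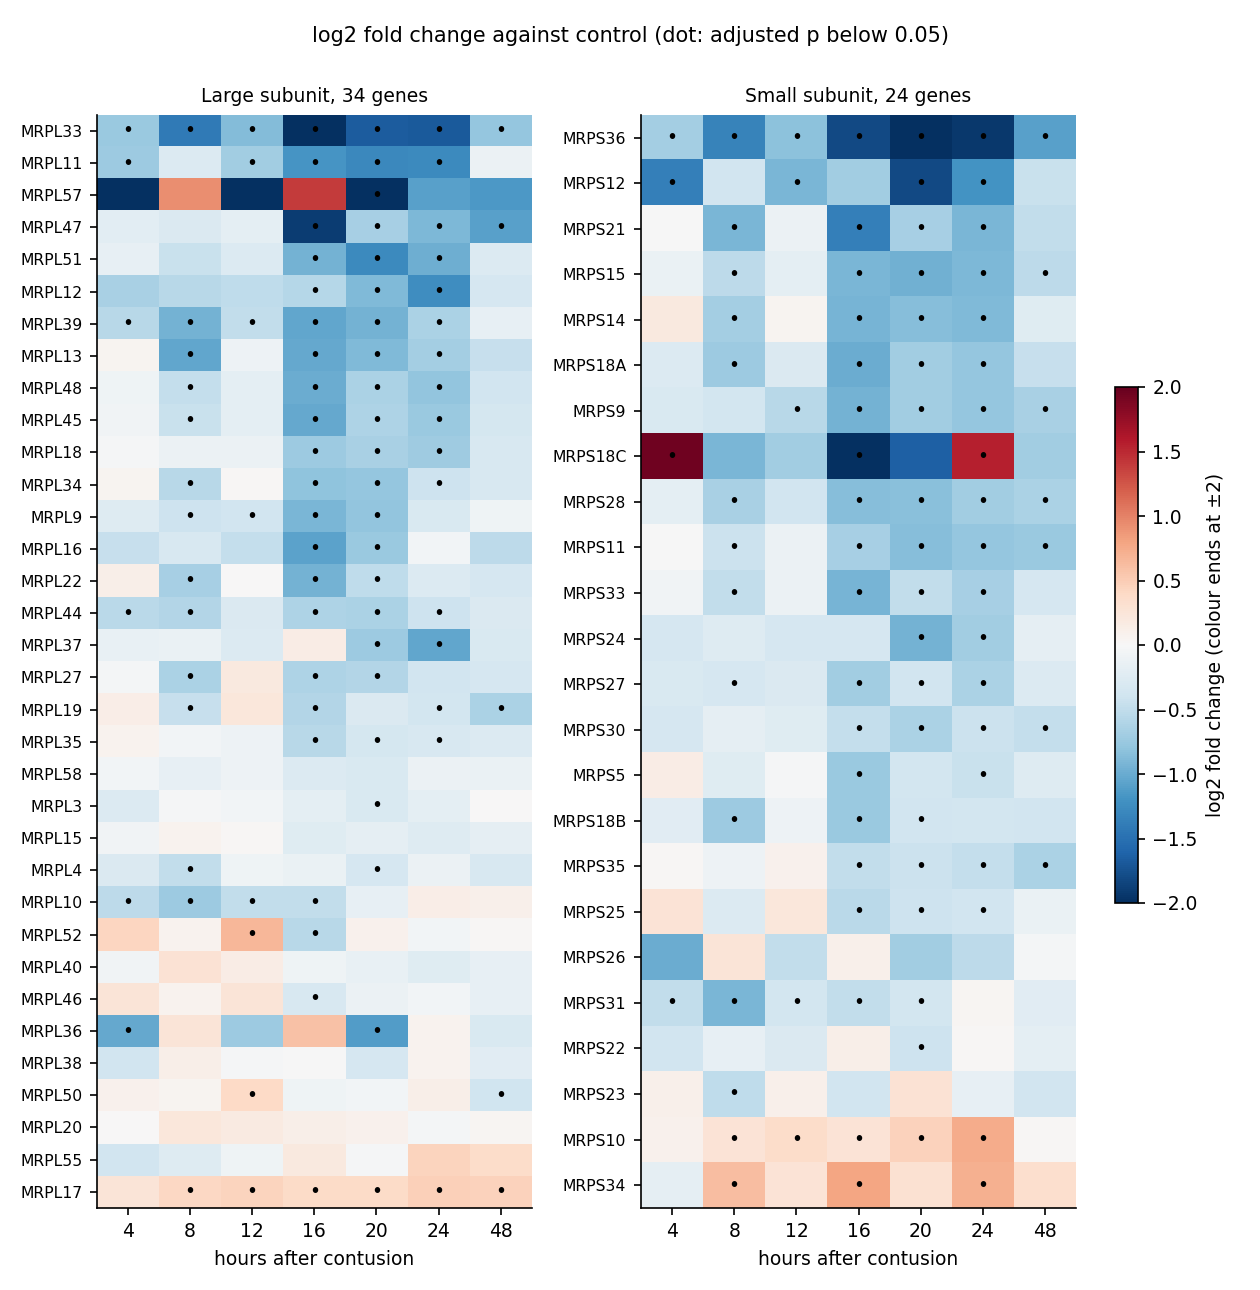
Fitted log2 fold change against control for each of the 34 large-subunit and 24 small-subunit genes (rows, ordered by their mean over 16, 20 and 24 h) at each time (columns); dots mark an adjusted p below 0.05 and the colour scale ends at ±2. Blue fills most of the 16, 20 and 24 h columns, where 38, 40 and 31 of 58 genes were lower, and MRPL17, MRPS10 and MRPS34 stand red at the bottom.

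The smallest joint p-value of any member (edgeR adjusted p = 3.47e-08) was that of MRPS36 (chromosome 16, 47386412 to 47405342, RefSeq gene span in Sscrofa11.1). Despite its symbol, its protein is known as KGD4, which ties the shared dehydrogenase subunit into the 2-oxoglutarate dehydrogenase complex of the tricarboxylic acid cycle, and it is not a part of the ribosome. MRPS36 stood at 117 CPM in the lowest control, 171 in the median and 179 in the highest. The libraries at 16 h held 39.2, 45.9, 47.7 and 49.1 CPM, those at 20 h 37.6, 38.8, 30.5 and 37.9 CPM, and those at 24 h 35.2, 43.3, 37.7 and 50.6 CPM. All 12 libraries lay below the lowest control. At 20 h the log2 change was -2.13 ± 0.27 (SE; edgeR adjusted p = 3.26e-07, lower in 4 of 4 libraries). It was already lower at 4 h, with 92.6, 75.0, 108 and 120 CPM (log2 -0.68 ± 0.25, edgeR adjusted p = 0.0494), where 1 library overlapped the controls and leaving out any of the 4 libraries ended the call. At 48 h libraries 1 and 3 held 35.4 and 40.0 CPM, and libraries 2 and 4 held 89.0 and 134 CPM. Without library 1 at 12 h neither MRPS36 nor MRPL33 was called there.

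MRPL33 (chromosome 3, 111428850 to 111438735), a small protein of the large subunit with a bacterial counterpart, was with MRPS36 the only member lower at all 7 times (1.30% of all genes were), although its 4 h call too was lost without any 1 of the 4 h libraries. Its controls ran from 47.5 through a median of 78.5 to 116 CPM. At 16 h the libraries held 16.1, 15.7, 20.9 and 23.9 CPM and at 20 h 22.6, 25.2, 23.5 and 25.4 CPM, all below the controls. The log2 change was -2.0 ± 0.27 at 16 h (edgeR adjusted p = 8.36e-07) and -1.66 ± 0.26 at 20 h. At 8 h library 4 held 43.3 CPM and the other 3 held 22.3 to 25.0 CPM. MRPS36 showed the same division at 8 h, with 97.5 CPM in library 4 and 47.2 to 54.6 CPM in the others. Library 4 is the 8 h library outside set 1, and its macrophage markers summed to 104 CPM against 279 to 589 CPM in the other 3. The part of either in this division was not tested.

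The large subunit held 4 more members among its 5 smallest joint p-values. MRPL39 (chromosome 13, 189148711 to 189166302), a protein of the mitochondrial ribosome without a bacterial counterpart, ranged from 46.4 to 63.5 CPM in the controls with a median of 57.1. It held 25.8, 26.7, 26.4 and 28.3 CPM at 16 h and 23.6, 33.4, 28.2 and 29.5 CPM at 20 h. MRPL39 was lower at every time but 48 h, with no overlap with the controls from 4 to 24 h, and its log2 change at 16 h was -1.04 ± 0.14 (edgeR adjusted p = 5.49e-07). At 48 h its libraries held 37.9, 52.2, 40.5 and 66.3 CPM, with library 2 inside the control range and library 4 above it.

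MRPL47 (chromosome 13, 117626846 to 117656388) belongs to the proteins around the exit tunnel, and its gene span overlaps that of ACTL6A. It held 4.39, 5.08, 6.41 and 5.43 CPM at 16 h against controls of 8.41 (lowest), 22.1 (median) and 29.4 CPM (highest). The log2 change was -1.90 ± 0.24 at 16 h (edgeR adjusted p = 3.74e-07). Of the large-subunit genes called at 48 h it fell most, by 1.08 ± 0.23, with 7.60, 10.8, 7.33 and 12.2 CPM. Control 1, at 8.41 CPM, was the only control that overlapped those libraries.

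MRPL45 (chromosome 12, 23751921 to 23766476), which anchors the ribosome to the inner membrane at its exit tunnel, held 43.3, 34.0, 45.6 and 47.1 CPM at 16 h. Its controls ran from 64.4 through 87.6 to 112 CPM, without overlap (log2 -1.03 ± 0.14, edgeR adjusted p = 1.37e-06). At 20 h library 1 held 74.7 CPM and the other 3 held 50.2 to 51.2 CPM. MRPL22 (chromosome 16, 68229725 to 68279103), which lines the exit tunnel, held 17.9, 17.3, 20.2 and 21.3 CPM at 16 h against controls of 30.2, 33.2 (median) and 45.2 CPM. Its log2 change was -0.94 ± 0.15 there (edgeR adjusted p = 7.68e-06) and -0.67 ± 0.15 at 8 h, but it passed the test at neither 4, 12, 24 nor 48 h.

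The proteins of the stalk, where translation factors bind, moved unevenly. MRPL11, at the base of the stalk, held 19.2, 18.3, 19.3 and 22.0 CPM at 16 h, 14.2, 21.9, 21.1 and 15.3 CPM at 20 h and 20.4, 21.1, 11.4 and 20.6 CPM at 24 h. All of these lay below its lowest control of 24.0 CPM, and the log2 change was -1.29 ± 0.24 at 20 h. MRPL12, the stalk protein itself, fell by 1.25 ± 0.25 on the log2 scale at 24 h, where library 3 held 10.6 CPM and the others 37.4 to 45.7 CPM. MRPL10, which carries MRPL12, was lower at 4, 8, 12 and 16 h and not at 20 h or later: at 8 h it held 15.9, 15.1, 12.1 and 16.2 CPM below its lowest control of 20.9 CPM, and at 24 h 24.3 to 30.0 CPM. These 3 genes were chosen after their values were seen.

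In the small subunit, MRPS14, MRPS21 and MRPS35 were among the 5 smallest joint p-values, beside MRPS36 and MRPS10. MRPS14 (chromosome 9, 117097841 to 117137188), of the head of the subunit, held 15.1, 15.0, 17.2 and 15.9 CPM at 16 h, 18.4, 16.1, 15.3 and 17.2 CPM at 20 h and 15.3, 15.5, 16.7 and 17.5 CPM at 24 h. The controls ran from 22.9 through 30.3 to 40.8 CPM, above all 12 libraries. The log2 change was -0.93 ± 0.16 at 16 h (edgeR adjusted p = 2.58e-05), while at 4 h the libraries held 25.8 to 40.9 CPM, across the control range. MRPS21 (chromosome 4, 98780329 to 98795223) fell most at 16 h, to 9.67, 11.5, 11.0 and 12.0 CPM from controls of 21.1, 28.2 (median) and 37.4 CPM (log2 -1.36 ± 0.21, edgeR adjusted p = 4.91e-06).

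MRPS35 (chromosome 5, 45973698 to 46023003), a small-subunit protein without a bacterial counterpart, had its lowest mean at 48 h. It held 24.1, 32.1, 25.5 and 29.1 CPM there, below the lowest of its controls (35.4, median 41.0, highest 55.1 CPM), with a log2 change of -0.64 ± 0.12 (edgeR adjusted p = 0.000365); on column totals it was -0.31 and not called. With MRPS11 and MRPL50 it was 1 of 3 members with no overlap with the controls at 48 h. MRPL50 was in turn higher at 12 h (log2 0.40 ± 0.12), with 28.7, 32.3, 28.5 and 25.8 CPM against a highest control of 29.0 CPM, and lower at 48 h (-0.40 ± 0.12). The 12 h call was lost without library 2 and the 48 h call without library 1 or 3. MRPL52 was also called both ways. At 12 h it held 33.6 and 30.5 CPM in libraries 1 and 2 and 77.3 and 51.3 CPM in libraries 3 and 4, of set 2, and at 16 h 17.6 to 25.2 CPM, beside controls of 21.8, 26.6 (median) and 55.0 CPM. The log2 change was 0.66 ± 0.22 at 12 h and -0.56 ± 0.24 at 16 h, and neither passed the test without library 3 of its time.

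Against this background 3 members were higher. MRPL17 (chromosome 9, 3075986 to 3077859), a large-subunit protein with a bacterial counterpart, was called at every time from 8 h on. Its controls ran from 76.9 through a median of 85.9 to 133 CPM. At 16 h it held 126, 130, 112 and 127 CPM, at 24 h 132, 142, 99.5 and 150 CPM and at 48 h 138, 138, 137 and 108 CPM. Controls 2 and 7, at 116 and 133 CPM, stood above at least 1 injured library at each time. The log2 change stayed between 0.38 ± 0.14 and 0.47 ± 0.14 (edgeR adjusted p from 0.00549 to 0.0239). With the 5 library sets as a term it was 0.27 to 0.44 and not called at any time, and it was called at 24 h alone whichever single library was left out.

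MRPS10 (chromosome 7, 37318344 to 37329246), which sits in the head of the small subunit, rose from 8 to 24 h. The controls ran from 35.7 through 41.1 to 44.5 CPM. The libraries at 16 h held 50.8, 47.3, 47.7 and 48.2 CPM and those at 24 h 59.3, 63.9, 66.3 and 76.5 CPM, all above the controls, as were those at 12 h (48.7 to 54.9 CPM). At 24 h the log2 change was 0.74 ± 0.10 (edgeR adjusted p = 8.52e-07). The calls at 8 and 16 h (log2 0.27 and 0.28) were lost without library 1. With the 5 library sets as a term the calls at 12 and 16 h were lost (log2 0.28 and 0.32), and against same-set controls all but that at 24 h. At 48 h the level was 36.8 to 48.0 CPM, and MRPS10 was lower than at 24 h by 0.72 ± 0.12 on the log2 scale (edgeR adjusted p = 0.000178).

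MRPS34 (chromosome 3, 40194078 to 40195316), of the body of the small subunit, rose at 8, 16 and 24 h. At 16 h its libraries held 81.7, 81.1, 69.8 and 84.3 CPM, above the controls at 27.3, 47.8 (median) and 56.8 CPM (log2 0.79 ± 0.22, edgeR adjusted p = 0.00293). The 8 h call was lost without library 1. At 24 h libraries 1, 2 and 4 held 85.3, 81.7 and 93.4 CPM and library 3, of set 2, held 38.9 CPM. Libraries of set 2 were also lower at 20 h, at 31.8 and 54.0 CPM against 63.8 and 77.9 CPM. No set was called for MRPS34 when set and time were fitted together, but its calls at 8 and 16 h were then lost (log2 0.49 and 0.59).

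**Figure D3:**
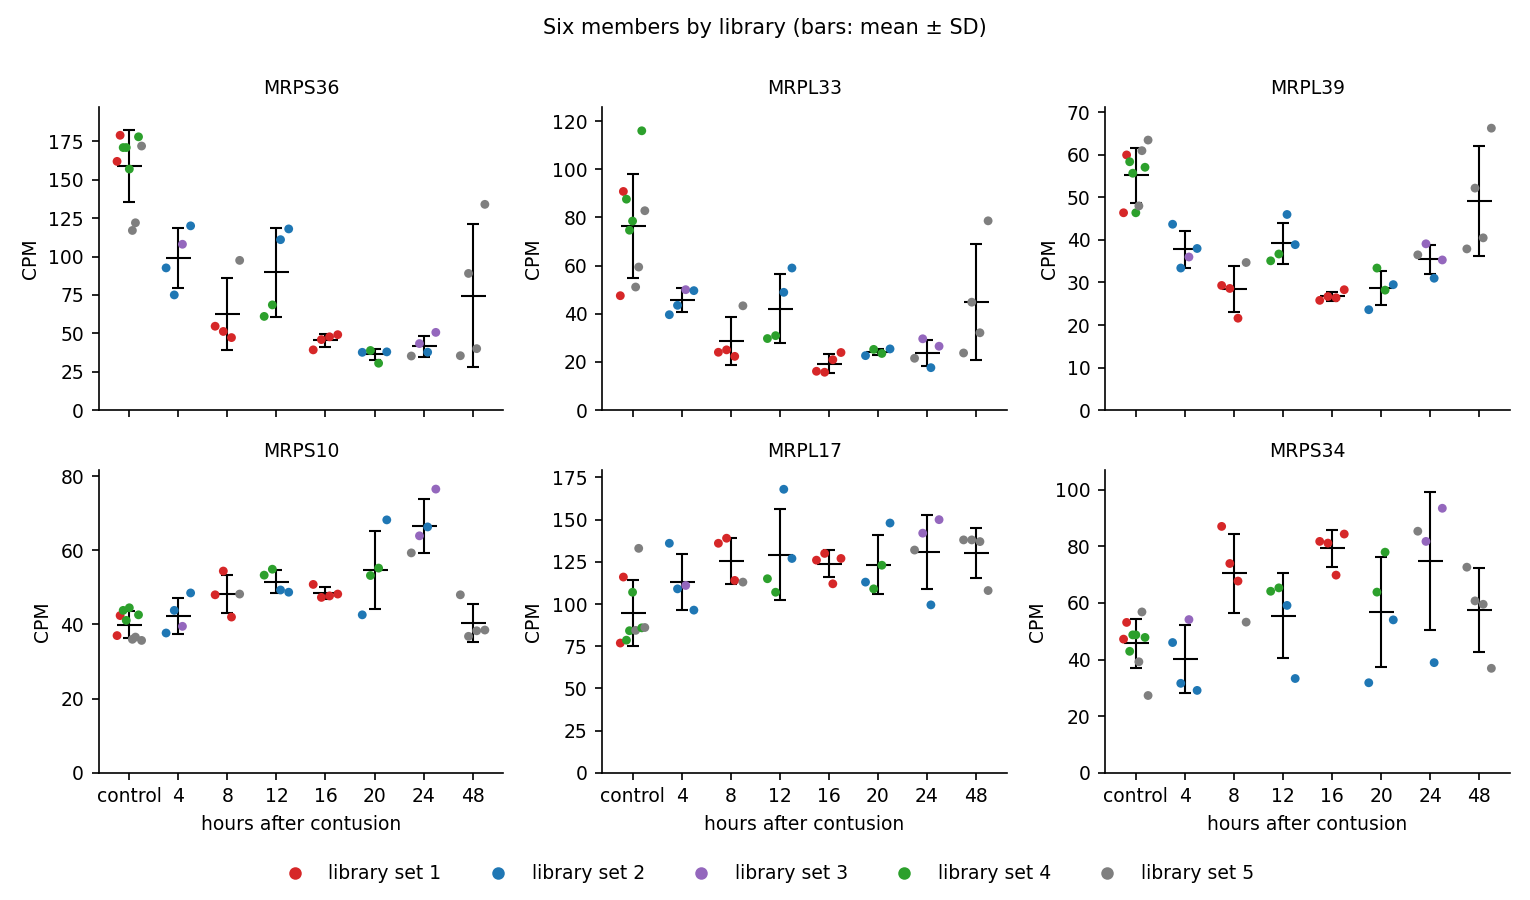
CPM of 6 members in each library by hours after contusion; points are libraries coloured by library set, bars are the mean ± SD. MRPS36, MRPL33 and MRPL39 lie below all controls at 16, 20 and 24 h (MRPS36 at 30.5 to 50.6 CPM against 117 to 179), MRPS10 lies above them at 12, 16 and 24 h, MRPS34 at 16 h, and MRPL17 overlaps them at each time.

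Of the members called at no time, 7 in number, MRPL15, MRPL20, MRPL38, MRPL40, MRPL55 and MRPL58 belong to the large subunit and MRPS26 to the small one. MRPL58, a hydrolase that can free stalled chains, held 32.4 to 45.8 CPM in controls and 27.2 to 39.1 CPM at 16 h. MRPL20 held 47.6 to 66.2 CPM in controls and 59.0 to 62.8 CPM at 16 h. A missed threshold does not show that these genes stayed level, and MRPS26 and MRPL55 were called over the times jointly (edgeR adjusted p = 0.0499 and 0.0176), MRPL55 with its lowest library, 14.8 CPM, at 4 h and its highest, 64.2 CPM, at 24 h.

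Some members differ between the library sets more than between times. MRPL57 (chromosome 11, 1320846 to 1321829), a short gene that overlaps SKA3, held 18.8 to 26.7 CPM in the 9 libraries of set 1 and at most 6.34 CPM in the other 28. Control 1 held 26.7 and control 2 held 24.1 CPM, and the other 7 controls 0.634 to 4.78 CPM. At 8 h libraries 1 to 3 held 19.3, 20.0 and 18.8 CPM and library 4, of set 5, held 0.110 CPM. In set 2 the highest value was 0.378 CPM, within the range that 3 counts gave over the libraries (0.108 to 0.378 CPM). With the sets as a term beside time, MRPL57 was called for set 1 (log2 4.52 ± 0.55 against set 5, edgeR adjusted p = 4.72e-05; 0.499% of all genes were higher in set 1) and for set 2 (-2.85 ± 0.69, adjusted p = 0.0143; 3.15% lower). The sets were drawn from expression in these same libraries. The p-values for sets, here and for the members below, therefore describe the division and do not test it. MRPL57 is 1 of the 40 members called lower at 20 h, a call that is lost without set 2. Without MRPL57 and MRPS36 the count there was 38 of 56.

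Other members also differ between the sets, less widely, and not all of them more than between times. MRPS26 (chromosome 17, 32629281 to 32631434) held 10.1 to 29.0 CPM in the 8 libraries of set 2 and at least 44.7 CPM in all others (log2 -1.57 ± 0.24 for set 2, edgeR adjusted p = 5.40e-05), and it was called at no time against the controls. MRPS12 (chromosome 6, 47728518 to 47732042), of the decoding centre, held at most 9.26 CPM in set 2 and at least 10.3 CPM elsewhere (-1.38 ± 0.21, adjusted p = 5.62e-05). Its fall at 4 h, -1.36 ± 0.34, is that of the 3 libraries of set 2, with 9.26, 7.54 and 7.46 CPM, while library 3 held 17.9 CPM inside the control range of 16.8 to 39.7 CPM. Outside set 2 it held 11.5 and 10.3 CPM at 20 h, below all controls, and 15.4 to 17.7 CPM at 16 h, where it was not called. MRPL36 was called for sets 1 and 2 (1.18 ± 0.21 and -0.96 ± 0.24), with a median of 14.2 CPM in set 1 and 3.32 CPM in set 2. MRPL22 was higher in set 2 (0.57 ± 0.15, edgeR adjusted p = 0.0299, where 0.0850% of all genes were), a smaller difference than its fall at 16 h.

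MRPS18C (chromosome 8, 135019702 to 135026719), which overlaps ABRAXAS1 and HELQ, was counted at 0.109 to 1.18 CPM in the controls, near the level of 3 counts there (0.236 to 0.369 CPM). It held 7.43 CPM in library 3 at 4 h and 3.23 and 3.24 CPM in libraries 2 and 4 at 24 h. Those are the 3 libraries of set 3, with the large column totals, and the highest value in any other library was 1.18 CPM. The table given here holds no row with a maximum below 101 counts, and MRPS18C has its highest counts in set 3. Its height there is therefore no support for a difference between sets or times. Its calls as higher at 4 and 24 h rest on these libraries, and the controls they are set against hold few counts. Its call as lower at 16 h, with 0.0 to 0.254 CPM, rests on few counts.

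**Figure D4:**
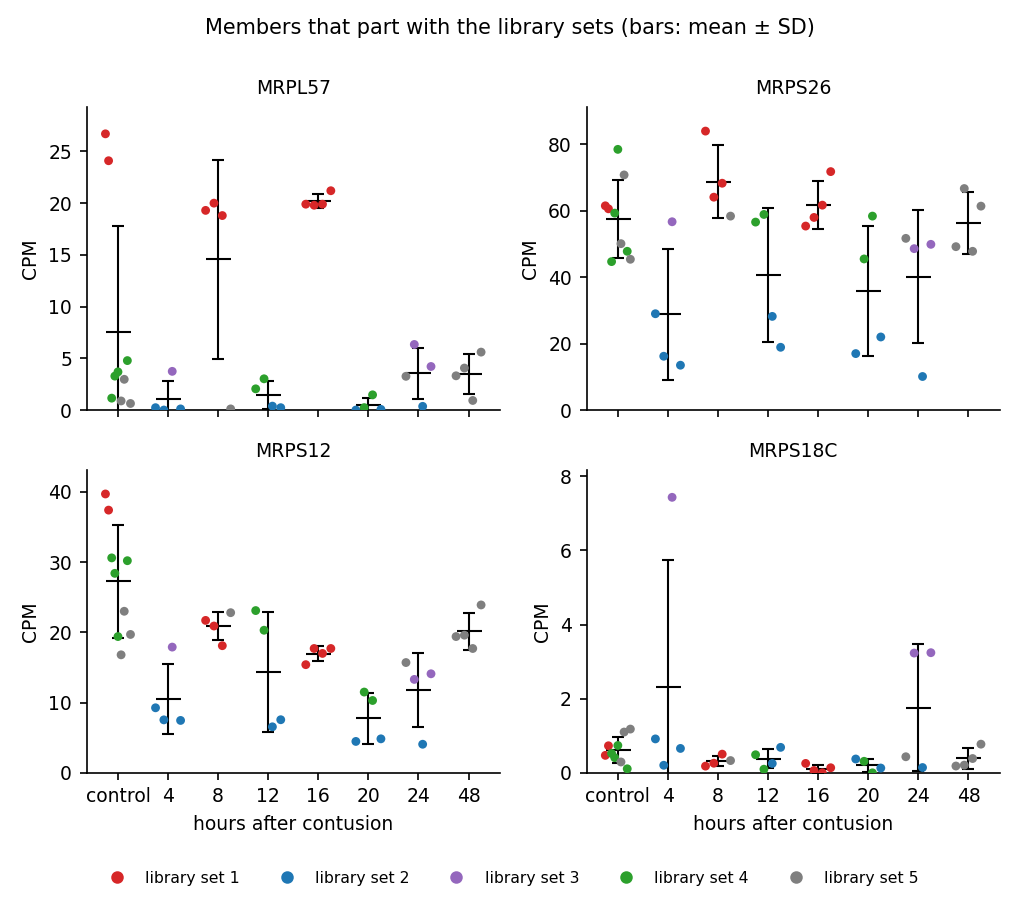
CPM of MRPL57, MRPS26, MRPS12 and MRPS18C in each library by hours after contusion; points are libraries coloured by library set, bars are the mean ± SD. MRPL57 is at 18.8 CPM or more in set 1 alone, MRPS26 and MRPS12 are lowest in set 2, and MRPS18C is above 1.18 CPM in the 3 libraries of set 3. The row of MRPS18C has its highest counts in set 3, so its height there is description only.

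The falls at 16 and 20 h were also seen within sets. All 16 h libraries are in set 1, and their large-subunit sums of 1140 to 1380 CPM lay below the 2 controls of set 1, at 1550 and 1860 CPM. Against those controls 33 members were lower at 16 h (17.0% of all genes) and none higher (12.2%). At 20 h libraries 2 and 3, of set 4, held 1120 and 1170 CPM against 1650 to 1770 CPM in the 4 controls of set 4, and 35 members were lower against same-set controls (19.5%) and none higher (17.9%). The same comparison gave 22 lower and none higher at 8 h (20.8% and 18.2%) and 16 lower and none higher at 12 h (10.4% and 12.6%). It gave 5 lower and 2 higher at 24 h, where it rests on 1 library (3.28% and 8.41%), and 1 lower and none higher at 48 h (0.181% and 3.19%). With the 5 sets as a term, 29, 37 and 35 members were lower at 16, 20 and 24 h (15.9%, 24.8% and 23.6% of all genes) and 0, 2 and 3 higher (11.5%, 24.5% and 23.5%). At 4, 8 and 12 h 1, 19 and 11 were lower (0.924%, 22.3% and 12.7%) and 0, 1 and 1 higher (1.83%, 19.8% and 13.7%), and at 48 h 7 were lower (2.19%) and none higher (9.58%). At 4 h, where no control is of the same set, set and injury cannot be told apart.

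At 12 h the libraries fell into pairs. Libraries 1 and 2, of set 4, had large-subunit sums of 1370 CPM each and MRPS36 at 61.0 and 68.5 CPM. Libraries 3 and 4, of set 2, had sums of 1900 and 1540 CPM and MRPS36 at 111 and 118 CPM. Macrophage markers, 10 of 11 in the table, summed to 602 and 283 CPM in the first pair and to 137 and 90.7 CPM in the second, beside 47.7 to 110 CPM in the controls. Their part in the difference, like that of the set, was not tested.

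At 48 h libraries 1 and 3 were low and libraries 2 and 4 were like controls. The large-subunit sums were 1250 and 1260 CPM against 1600 and 1700 CPM, and the small-subunit sums 720 and 744 CPM against 970 and 1060 CPM. Macrophage markers summed to 1850 and 1050 CPM in libraries 1 and 3 and to 208 and 101 CPM in 2 and 4, and the 5 fibre markers to 15800 and 24000 CPM against 61300 and 52000 CPM. All 4 are of set 5. Without libraries 2 and 4, 32 members were lower at 48 h (17.0% of all genes) and 2 higher (19.6%), in place of 11 and 1. Those libraries were left out after these values were seen, so this count describes the split and does not test it. Leaving out library 4 alone gave 23 members called, and leaving out library 1 or 3 gave 6 or 5.

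From 4 to 8 h, 11 members fell (15.4% of all genes) and 6 rose (16.0%). MRPS14 fell by 0.86 ± 0.18, MRPS21 by 0.91 ± 0.23 and MRPL22 by 0.78 ± 0.17 on the log2 scale (edgeR adjusted p = 0.00143, 0.00477 and 0.00172). Of the 6 that rose, MRPL57, MRPL36, MRPS12 and MRPS26 are members that differ between the sets. Set 2 holds 3 of the 4 h libraries and set 1 holds 3 of the 8 h libraries. No set holds libraries of both times, so set and time cannot be told apart here. With the sets as a term no member was called between these times. The share of all genes is not given for that fit, so the count is no result about the members in particular. Without library 1 at 8 h 6 members were called, and without library 1 or 4 at 4 h 9 or 7.

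From 24 to 48 h, 9 members rose (10.2% of all genes) and 2 fell (9.22%). MRPL11 rose by 1.16 ± 0.26, from 11.4 to 21.1 CPM at 24 h to 33.0, 44.8, 35.1 and 51.9 CPM at 48 h, with no overlap (edgeR adjusted p = 0.00246, chosen after its values were seen). MRPL33 rose by 0.91 ± 0.29 and MRPS36 by 0.83 ± 0.28, both with libraries 1 and 3 still near the 24 h level. Without libraries 2 and 4 at 48 h, left out after their values were seen, 2 members were called lower and none higher, with no share of all genes given. Leaving out library 4 alone left 3 members called, and leaving out library 2 at 48 h or library 3 at 24 h left 6 each.

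The place of a protein in the ribosome is not always that of its symbol. MRPS18A and MRPS30 are known to lie in the large subunit, and both were lower at 16, 20 and 24 h. MRPS18A held 20.1 to 25.1 CPM at 16 h against 39.7 to 55.0 CPM in controls (log2 -1.0 ± 0.24), and MRPS30 12.2 to 16.0 CPM at 20 h against 18.1 to 29.8 CPM (-0.64 ± 0.15). Counted by place, with MRPS36 in neither, the large subunit (36 genes) was at 73.2% of control at 16 h and 71.1% at 20 h, and the small subunit (21 genes) at 73.2% and 71.6%. Proteins numbered as having a bacterial counterpart (30 genes) summed to 69.3% of control at 16 h and 69.8% at 20 h. The others without MRPS36 (27 of 28, MRPL47 among them by its number) summed to 77.7% and 73.0%.

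Subunits of the mitoribosome with other names were lower at the same times. DAP3, a GTP-binding protein of the small subunit, fell by 0.74 ± 0.11 on the log2 scale at 16 h and was lower at 5 of the 7 times. PTCD3 was lower by 0.79 ± 0.15 at 24 h, and CHCHD1 at 16 h alone (-0.73 ± 0.23). In all, 3 of the 4 such genes tested were lower at each of 16, 20 and 24 h (27.8%, 26.2% and 27.1% of all genes were). None was higher (25.3%, 25.4% and 26.8%).

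Among 16 mitochondrial translation factors, 11 were lower at 16 h, 9 at 20 h and 9 at 24 h (27.8%, 26.2% and 27.1% of all genes were), and 1, 0 and 1 higher (25.3%, 25.4% and 26.8%). GFM1, the elongation factor that moves the ribosome along, was lower at all 7 times (log2 -1.21 ± 0.15 at 20 h, edgeR adjusted p = 2.18e-07), as was TACO1, an activator of COX1 translation (-1.39 ± 0.22 at 24 h). MTRES1, which acts on stalled mitoribosomes, fell by 1.59 ± 0.25 at 16 h. The 23 assembly and ribosomal RNA maturation factors had 8, 7 and 4 lower at 16, 20 and 24 h. That is 34.8%, 30.4% and 17.4% of the list, near or below those shares of all genes. In the list 1, 2 and 3 were higher (25.3%, 25.4% and 26.8% of all genes). MALSU1, which holds the large subunit apart during assembly, fell by 1.79 ± 0.26 at 20 h. FASTKD2 was lower at 8 h (-0.61 ± 0.12) and higher at 24 h (0.32 ± 0.11), and NOA1, a GTPase of small-subunit assembly, was higher at 8 h (0.77 ± 0.13). C1QBP is in this list and defines the library sets.

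The 19 genes of mitochondrial transcription and RNA handling had 9, 6 and 7 lower at 16, 20 and 24 h. That is 47.4%, 31.6% and 36.8% of the list, where 27.8%, 26.2% and 27.1% of all genes were. In the list 1, 1 and 2 were higher (25.3%, 25.4% and 26.8% of all genes). POLRMT, the mitochondrial RNA polymerase, was higher at 8 h (log2 1.15 ± 0.20) and 16 h (0.75 ± 0.20). TEFM, its elongation factor, was lower at 24 h by 1.27 ± 0.22. TFB2M, its initiation factor, was higher at 8 h (0.77 ± 0.17) and lower at 24 h (-0.67 ± 0.18). Of 22 genes that charge or modify mitochondrial transfer RNA, 10, 11 and 10 were lower (45.5% at 16 and 24 h) and 4 higher at each of these times. PUS1, a pseudouridine synthase, was higher at 6 times (1.64 ± 0.19 at 16 h), and QRSL1, which makes glutaminyl transfer RNA, was lower (-1.58 ± 0.23 at 16 h). HARS2 was lower at 8 h (-0.94 ± 0.13) and higher at 24 h (0.48 ± 0.12).

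Among 12 regulators of mitochondrial biogenesis the counts were near the background at 16 h but above it at some other times. At 16 h 3 were higher and 4 lower, where 25.3% and 27.8% of all genes were. At 4 h 4 were higher (9.22% of all genes) and 3 lower (9.06%). At 8 h 5 were higher (25.8%) and 3 lower (28.2%), and at 12 h 4 and 3 (16.3% and 14.7%). At 20 h 4 were higher (25.4%) and 5 lower (26.2%). PPRC1, a coactivator of the PGC-1 family, was higher at every time but 48 h, by 2.75 ± 0.26 on the log2 scale at 8 h and 1.63 ± 0.26 at 16 h (edgeR adjusted p = 7.06e-06). PPARGC1B, another coactivator, was lower at the same 6 times, by 2.10 ± 0.39 at 16 h. YY1, a zinc finger factor, was higher at 16 h by 0.65 ± 0.11.

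The nuclear genes for respiratory chain subunits fell further than the mitoribosome on the same scale. Of 59 such genes, 57, 54 and 53 were lower at 16, 20 and 24 h (27.8%, 26.2% and 27.1% of all genes were). Their median log2 changes were -1.44, -1.43 and -1.51. Their sum stood at 36.5%, 35.0% and 33.6% of control, where the large-subunit sum was at 73.8%, 71.4% and 76.9%. The 12 mitochondrially encoded genes, the products of which this ribosome makes, summed to 43.5%, 44.7% and 51.7% of control. Of them 11, 9 and 6 were lower (27.8%, 26.2% and 27.1% of all genes). ND5 fell by 1.33 ± 0.27 on the log2 scale at 20 h. ND6, a gene that defines the sets, was lower at 4, 12 and 20 h, and ND4L was higher at 4 and 24 h and lower at 16 h. The 45 cytosolic ribosomal protein genes summed to 71.5% of control at 16 h, where 27 were lower (27.8% of all genes). At 20 h they summed to 97.2%, where none was lower (26.2%) and 2 were higher (25.4%). The difference between these gene sets and the members was not tested.

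**Figure D5:**
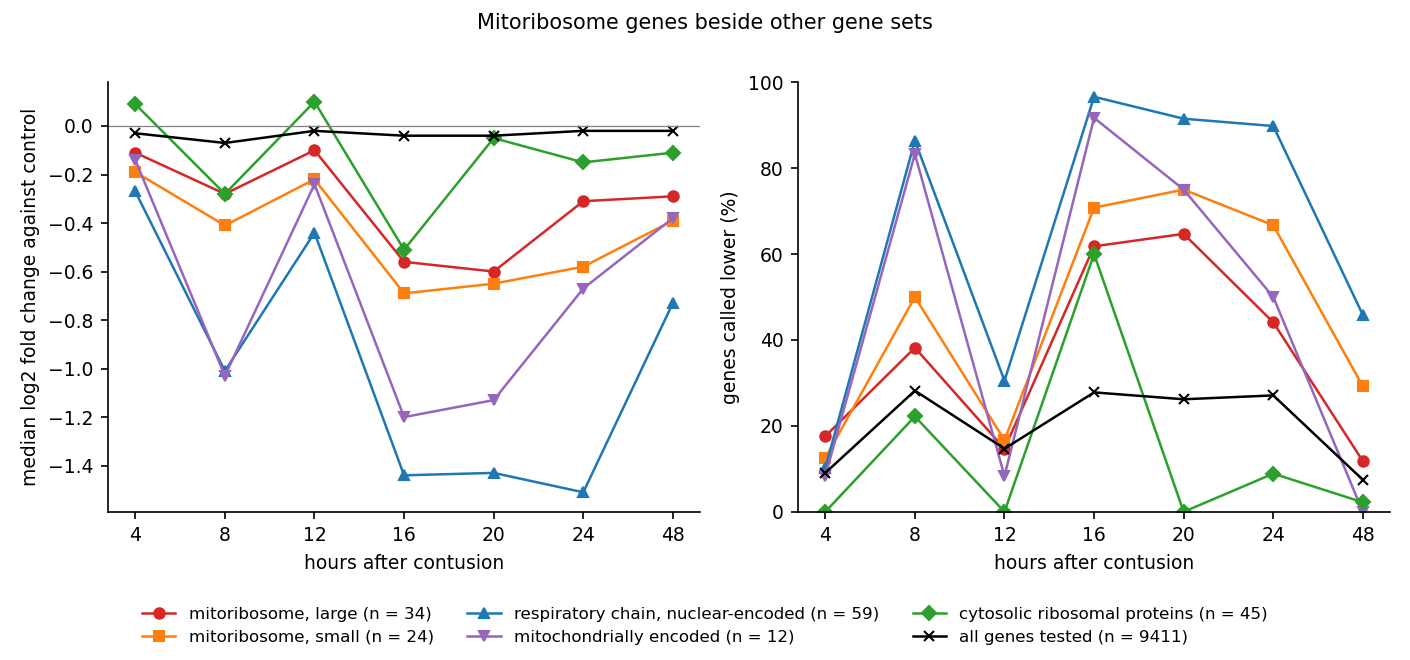
Median log2 fold change against control (left) and share of genes called lower (right, %) by hours after contusion for the mitoribosome subunits, the nuclear-encoded respiratory chain, the mitochondrially encoded genes, the cytosolic ribosomal proteins and all genes tested. The mitoribosome medians of -0.56 to -0.69 at 16 and 20 h lie between all genes (-0.04) and the respiratory chain (-1.44 and -1.43), and the cytosolic ribosomal proteins are near 0 at 20 h (-0.05).

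Markers of other cells moved over the same times. The 5 fibre markers summed to 44.0%, 53.2% and 33.3% of control at 16, 20 and 24 h, and the 10 macrophage markers to 937%, 987% and 1360%. Library 3 at 24 h had the lowest large-subunit sum of the 37 libraries, 963 CPM, with the highest macrophage sum, 1990 CPM, and a fibre sum of 17100 CPM. The 5 neutrophil markers summed to 0.815 to 12.1 CPM in controls and 17.9 to 296 CPM at 8 h, while the 7 fibroblast markers were at 36.8% of control at 8 h and 97.9% at 16 h. Their part in the members' levels was not tested. At 4 h the fibre sum was 69100 to 90100 CPM, within the control range, and 2 of the 58 members, MRPL39 and MRPL44, lay below all controls (2.44% of all genes). At 20 h the fibre sums were 71500, 31000, 24900 and 23300 CPM and the large-subunit sums 1170, 1120, 1170 and 1290 CPM in libraries 1 to 4.

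The genes lie apart from each other. In the RefSeq gene table for Sscrofa11.1 the 58 members are spread over 17 chromosomes, with at most 7 on 1 of them. Their spans have a median of 10394 bases, against 19160 for the protein-coding genes of the count table, and 35 have another gene within 1 kb. The spans of 16 members overlap another gene, and since no source states whether strand was used in counting, reads of overlapping genes cannot be told apart for them.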

How the data were processed

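Per the labels' protocols, RNA was extracted with Trizol and NEBNext Ultra libraries were read on a HiSeq-2500 in pairs of 150 bp. The submitters' processing notes name HISAT2 2.2.1 and HTSeq, with Trimmomatic for trimming, FastQC and MultiQC for quality, and the build Sscrofa11.1. Neither the annotation release nor a strand setting is stated there, and both are not given in the sources used here. What the authors deposited is 1 table of raw read counts per gene for 37 libraries, with no normalized values. The smallest row maximum was 101 counts, so genes with few reads in every library have no row in the table given here.

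From these counts, edgeR 4.0.16 (R 4.3.3) gave TMM factors, CPM and the quasi-likelihood test, fitted over all 37 libraries with time as the only factor after filterByExpr left 9411 genes. Benjamini-Hochberg adjusted p-values below 0.05 were called. The script was tested on simulated data. Depth was 9.86 to 22.9 M counts per library, and 3 counts correspond to 0.108 to 0.378 CPM (counting error only). No library pair agreed within sampling noise (lowest chi-square per degree of freedom 16.11).

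Members and gene lists were chosen with earlier results of these data known. The rule for named members took MRPL57, the 5 of each subunit with the smallest joint p, the largest rise and fall per subunit and time, those called against their subunit's median, those called at all times or at none, 3 whose symbol does not give their place, and up to 3 genes per pathway list by joint p. MRPL10, MRPL11, MRPL12, MRPL44 and MRPS11 were named after their values were seen. Alternatives were DESeq2 1.42.0, limma-voom (limma 3.58.1), other scalings and filters, library sets as a term, same-set controls and leaving out libraries. The library sets were drawn with the data in view, and same-set controls and the fit without libraries 2 and 4 at 48 h were added after seeing the data. No genome sequence was used.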

Additional observations from a re-analysis of the deposited data

Results flagged for a closer look

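Among 240 groups of 4 or 9 libraries (27 named members, the sums of both subunits and their ratio, each in the controls and at 7 times), 15 held 1 library far from its group by Dixon's criterion at 95%, where chance gives about 1 in 20. MRPL57 was such a case at 4 h (library 3 at 3.74 CPM, the others at 0.0 to 0.229), at 8 h (library 4 at 0.110, others 18.8 to 20.0), at 16 h (library 4 at 21.2, others 19.8 to 19.9) and at 20 h (library 3 at 1.47, others 0.0 to 0.233). At 4 h MRPS18C stood at 7.43 CPM in library 3 (others 0.204 to 0.915) and MRPL52 at 65.6 CPM in library 1 (others 31.5 to 35.1).

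At 8 h library 4 was high for MRPL33, 43.3 CPM against 22.3 to 25.0, and for MRPS36, 97.5 CPM against 47.2 to 54.6. At 20 h library 1 was high for MRPL45, 74.7 CPM against 50.2 to 51.2, and for MRPS18A, 43.2 CPM against 21.5 to 24.1, and library 3 was low for MRPS36, 30.5 CPM against 37.6 to 38.8. At 24 h library 3 was low for MRPS26, 10.1 CPM against 48.6 to 51.7, and for MRPL20, 37.2 CPM against 58.2 to 62.4. At 48 h library 4 was low for MRPL17, 108 CPM against 137 to 138, and library 1 was high for MRPS10, 48.0 CPM against 36.8 to 38.5.

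Between 8 h and 4 h, 11 named members differed in the edgeR test of the difference itself (adjusted p below 0.05). Of all genes 16.0% were higher and 15.4% lower at 8 h. No library set holds libraries of both times, so set and time cannot be told apart in these differences. Several of these members were named for their p-values or changes in the same fit. The log2 differences, 8 h minus 4 h, were -0.78 for MRPL22, 1.27 for MRPL36, 0.50 for MRPL38, -0.41 for MRPL39, 3.61 for MRPL57, 0.97 for MRPS12, -0.86 for MRPS14, -2.87 for MRPS18C, -0.91 for MRPS21, 1.24 for MRPS26 and 0.81 for MRPS34. Between 48 h and 24 h the log2 differences, 48 h minus 24 h, were 0.91 for MRPL33, 0.47 for MRPL39, -0.53 for MRPL50, -0.72 for MRPS10, 0.63 for MRPS14 and 0.83 for MRPS36. Of all genes 10.2% were higher and 9.22% lower at 48 h than at 24 h.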

How the results depend on the processing

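At 16, 20 and 24 h, and over the times jointly, the count of members called stayed within 1.5 times of 41, 42, 35 and 52 under DESeq2, limma-voom, RLE size factors, both low-count filters and the set terms. The exceptions were column totals at 20 h (25) and same-set controls at 24 h (7, from 1 library). For the other comparisons, the 4-set term gave 1 member called at 4 h (10 in the test as reported), 18 at 8 h (28), 19 at 48 h (12) and 0 at 8 h against 4 h (17). The 5-set term gave 1, 7 and 0 at 4 h, 48 h and 8 h against 4 h. Column totals gave 18 at 4 h and 5 at 48 h against 24 h (11). Fitting only the 2 groups compared gave 5 at 4 h, 6 at 48 h, 11 at 8 h against 4 h and 3 at 48 h against 24 h. Without set 2, 2 were called at 4 h and 2 at 8 h against 4 h. Same-set controls gave 1 at 48 h and no value at 4 h. Without libraries 2 and 4 at 48 h the counts were 34 at 48 h and 2 at 48 h against 24 h. No share of all genes is given beside these counts, and the cause was not tested for any of them.

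On column totals the large-subunit log2 ratio was -0.08, -0.14, 0.10 and 0.13 at 16, 20, 24 and 48 h (-0.44, -0.49, -0.38 and -0.20 on TMM), and the small-subunit ratio -0.36 at 4 h and -0.24, -0.30, -0.07 and -0.09 at 16 to 48 h (-0.21, -0.60, -0.63, -0.55 and -0.40). By place in the ribosome the small-subunit ratio was -0.45 at 16 h and -0.48 at 20 h. With the members grouped by symbol, the median over the small-subunit members, taken in place of their sum, was -0.58 at 20 h.

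Leaving out 1 library at a time gave 3 to 11 members called at 4 h, 20 to 31 at 8 h, 8 to 13 at 12 h, 35 to 43 at 16 h, 35 to 43 at 20 h, 30 to 37 at 24 h, 5 to 23 at 48 h, 49 to 53 jointly, 6 to 25 at 8 h against 4 h and 3 to 14 at 48 h against 24 h. Here and above, counts with 1 library left out show only how far the count moved, since no share of all genes is given for them. Of 96 changes of named members 59 stayed called whichever library was left out. Of their 1223 values under the other alternatives 1002 stayed past the threshold in the same direction and 17 reversed. The reversals under the 4-set or 5-set term were MRPL36 at 4 h (0.11 and 0.08) and, at 8 h against 4 h, MRPL36 (-0.40 and -0.33), MRPL57 (-0.71 and -0.90), MRPS12 (-0.35 and -0.29) and MRPS21 (0.03, 4 sets). MRPS18C turned to -0.16 at 4 h (4 sets; -0.07 without library 3 and 2.31 without library 2, the ends of its range) and to -1.23, -1.27 and -0.96 at 24 h (4 sets, 5 sets, same-set controls). MRPL52 at 12 h was -0.08 with same-set controls, MRPS30 and MRPS35 at 24 h were 0.05 and 0.01 on column totals, and MRPS36 at 48 h against 24 h was -0.15 without libraries 2 and 4 at 48 h.

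The labels number the libraries, and 44 of 112 same-number pairs had correlated deviations over 0.1. Their median was 0.0491, against -0.0151 for pairs of other numbers. For 8 of 32 libraries the best match had their own number, near what chance gives for numbers 1 to 4. The numbers thus gave no clear sign of pairing, but this check cannot exclude libraries that share an animal. With a replicate block, 12, 24, 11, 38, 39, 32 and 12 members were called at the 7 times and 49 jointly, against 11, 23, 11, 39, 39, 29, 11 and 50 without it in the same libraries.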
